A study of Mus musculus with 8 samples.

Results

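Principal cells of the collecting duct were chosen from the single-cell data of embryonic mouse kidneys by their own RNA, as the cells with at least 10 unique molecular identifiers (UMIs, counted molecules) of Aqp2, Hsd11b2 and Aqp3 together and fewer than 4 of the intercalated cell genes Foxi1 and Atp6v1g3. This rule found 549 principal cells among 6495 cells that could be assigned to a mouse, which is 8.45%. The kidneys came from 4 male embryos at E17.5 by the labels (a day later by the study's methods), of which mice 1 and 2 were Trim28Δ/Δ and mice 3 and 4 were Trim28 f/f. In the Trim28Δ/Δ mice, Cre driven by Six2 removed an inner segment of both floxed Trim28 alleles in nephron progenitors and their descendants, whereas the Trim28 f/f mice carried the same floxed alleles undeleted. The labels do not say whether the Trim28 f/f embryos also carried the Six2-cre transgene. The 4 mice were sequenced together in a single pool, with separate libraries for genes and for tags. Each mouse is thus 1 replicate of its genotype and cells are not replicates. The 6 bulk RNA samples of P0 kidneys were not analysed here.

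The collecting duct grows from the ureteric bud, a lineage apart from the Six2-expressing progenitors that make the nephron from the glomerulus to the connecting tubule. Principal cells are its water and sodium handling cells. Vasopressin acts on the receptor Avpr2 and moves the water channel Aqp2 into the apical membrane, Aqp3 and Aqp4 let water out at the base, and aldosterone acts through the epithelial sodium channel (Scnn1a, Scnn1b and Scnn1g). Hsd11b2 inactivates glucocorticoids so that the mineralocorticoid receptor Nr3c2 can answer to aldosterone. Trim28 is a corepressor that KRAB zinc finger proteins bring to DNA, where it recruits the histone methyltransferase Setdb1. Six2 marks the nephron lineage and not the ureteric one, and the principal cells of the collecting duct are therefore known as cells outside the lineage of the Cre. The rule may also take in cells of the connecting tubule, which belongs to the nephron lineage and shares genes with the duct.

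The mouse of each cell was read from a lipid-anchored DNA tag of 15 bases, and these tag sequences are shown because every comparison below rests on them. The sequences of the listed tags, 5′ to 3′, were
CMO305, mouse 1, Trim28Δ/Δ: cgcgatatggtcgga
CMO308, mouse 2, Trim28Δ/Δ: cggattccacatcat
CMO306, mouse 3, Trim28 f/f: aagatgaggtctgtg
CMO307, mouse 4, Trim28 f/f: aagctcgttggaaga
Each tag differed from every other listed tag in at least 11 positions. The median share of a principal cell's tag counts that belonged to its own mouse was between 88.3% and 90.5%. A further 3603 cells carried a tag with no mouse in the deposited list, and 268 of them (7.44%) met the rule for principal cells, but they have no genotype and entered no comparison.

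Principal cells held a median of 16697.5, 18290, 20474.5 and 16016 UMIs in mice 1 to 4, and their summed depth was 2206328, 3194085, 5352122 and 2151291 UMIs. The principal cells of mouse 3 were therefore the deepest. In the assigned cells outside all classes compared here, the median of mouse 3 was the lowest, at 15992 UMIs against 16899 to 17600. Within the rule, 19 cells had 10 or 11 UMIs of the 3 chosen genes, and 31 cells just outside it had 8 or 9. The median cell held 42 such UMIs. Fxyd4, which the rule did not use, was at 303 CPM (CPM values are a gene's summed UMIs for every 1000000 UMIs of the same cells) in the former, 395 in the latter and 1234 in all principal cells, and S100g at 2483, 5550 and 5269. At the other limit, 10 principal cells had 3 UMIs of the intercalated genes, and 4 cells with 4 of them were left out. In all, 80 cells with at least 10 UMIs of the chosen genes carried at least 4 of the intercalated genes.

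The label was held against other genes, as a description only, since the same cells were chosen by their RNA. Fxyd4, a regulator of the sodium pump in the duct, stood at 1234 CPM in principal cells against 60.7 in all other assigned cells. The leading genes by this ratio were Crisp1, Aqp2, Aqp4, Fxyd4, Elf5, S100a14, Aqp3, Sprr2f, Guca2a and Apela, with ratios between 16.1 and 32.6, of which Aqp2 and Aqp3 belong to the rule. These ratios pool the mice. That of Crisp1 was 101, 50.5, 9.397 and 12.9 in mice 1 to 4 and that of Fxyd4 27.2, 19.1, 14.6 and 27.4, so Crisp1 led in the Trim28Δ/Δ mice only. Crisp1 encodes a secreted cysteine-rich protein, Elf5 an epithelial ETS factor, Guca2a the gut hormone guanylin and Apela a ligand of the apelin receptor. Scnn1g followed with a ratio of 14.8, and Gata3, a transcription factor of the ureteric lineage, stood at 412 CPM. The nephron progenitor gene Six2 was near 0, with 0.93 to 2.82 CPM per mouse, below its 18.5 in the free RNA of near-empty droplets. The intercalated cell genes, which the rule kept low, stood at 6.17 to 9.97 (Foxi1) and 6.26 to 9.97 CPM (Atp6v1g3). The duct genes and the defining transcription factors were thus present in all mice.

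Markers of other cell types were present at unequal levels. The 5 red cell markers summed to 1656 to 5421 CPM per mouse (32209 in free RNA), against 2190 to 5224 CPM of the principal cell markers, and the 6 distal convoluted and connecting tubule markers to 234 to 519 CPM, above their 183 in free RNA. The summed level of 5 immune markers was between 21.3 and 79.3 CPM, most of it Ptprc, the CD45 gene. Ptprc stood at 69.8, 53.5, 14.8 and 49.7 CPM in mice 1 to 4, above the 11.9 of the cells outside all classes compared here, whereas C1qa, C1qb, Lyz2 and Cd74 each stayed under 4. The 4 loop of Henle markers summed to between 44.1 and 198 CPM, and the 6 proximal tubule markers to between 201 and 466, both below their levels in the free RNA. Scrublet called 44 principal cells doublets (8.01%, against 5.88% of all assigned cells), and these cells were kept.

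Principal cells took up a slightly larger share of the cells in both Trim28Δ/Δ mice. They were 106 of 1168 cells in mouse 1 (9.08%, exact 95% binomial interval 7.49 to 10.9%), 130 of 1289 in mouse 2 (10.1%, 8.50 to 11.9%), 206 of 2490 in mouse 3 (8.27%, 7.22 to 9.42%) and 107 of 1548 in mouse 4 (6.91%, 5.70 to 8.29%). The shares of the genotypes did not overlap. Trim28Δ/Δ mice averaged 9.58% ± 0.714 (SD, n = 2) and Trim28 f/f mice 7.59% ± 0.962 (SD, n = 2). The gap of 1.99 percentage points gave p = 0.333 in a two-sided exact permutation test. That is the smallest p that 2 mice against 2 can give, so this design cannot pass 0.05. The intervals cover counting error only. A share of cells rises when other cells become fewer and falls when they become more numerous. Neither can be told apart here from a change in the number of principal cells.

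**Figure D1:**
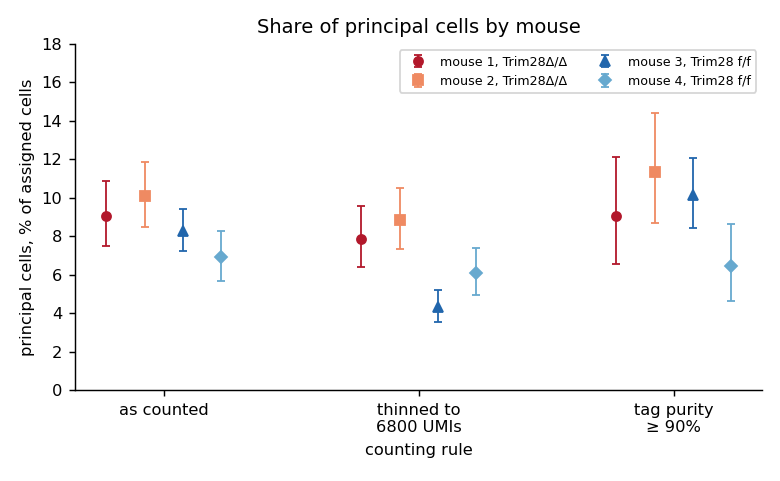
Share of principal cells among the assigned cells of each mouse in percent (vertical axis) under 3 counting rules (horizontal axis), with exact 95% binomial intervals as bars. As counted, the mice stood at 9.08%, 10.1%, 8.27% and 6.91%, and with a tag purity of at least 90% mouse 3 stood at 10.2% and lay between both Trim28Δ/Δ mice.

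The order of the mice depended on the counting rule. When every cell was thinned to 6800 UMIs before the rule was applied, mouse 3 had 108 principal cells (4.34%), fewer than mouse 4 with 6.07%, against 7.88% and 8.84% in the Trim28Δ/Δ mice. Aqp2, the main gene of the rule, was low in mouse 3 (below). With at least 20 UMIs of the chosen genes, 150 of the 206 cells of mouse 3 remained. In mice 1, 2 and 4 these were 90 of 106, 115 of 130 and 95 of 107. The part of this in the changed order was not tested. With tags of at least 90% purity the genotypes overlapped, since mice 1 to 4 then stood at 9.07%, 11.3%, 10.2% and 6.45% (exact permutation p = 0.667).

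Of the water channels, Aqp2 was low in mouse 3. Aqp2 stood at 2356, 2220, 772 and 3045 CPM in mice 1 to 4, so mouse 3 was far below the others and the genotypes overlapped. The median was 40.5, 43.0, 16.0 and 47.0 Aqp2 UMIs per cell. Since the rule uses Aqp2, these levels and the share of principal cells with an Aqp2 UMI (93.4% to 97.2%) are a description. In loop of Henle cells, which should lack the gene, 30.8% to 39.4% of cells had an Aqp2 UMI and the level was 14.3 to 23.9 CPM. Aqp3 stood at 340, 308, 391 and 432 CPM, and here mouse 3 lay between mouse 1 and mouse 4. Aqp4 stood at 234, 203, 96.6 and 189 CPM, with mouse 3 again lowest. The vasopressin receptor gene Avpr2 was at 44.9, 35.4, 35.1 and 51.1 CPM, and the prostaglandin receptor gene Ptger1 at 85.2, 74.2, 11.2 and 99.5. Of 21 genes of water transport and vasopressin signalling, 17 were tested by genotype and 0 passed.

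Genes of sodium and potassium handling were less uneven. Fxyd4 stood at 1604, 1522, 825 and 1445 CPM, lowest in mouse 3. Hsd11b2 stood at 285, 274, 202 and 303, and Scnn1b, the beta subunit of the epithelial sodium channel, at 222, 176, 171 and 197 CPM. The pump subunit gene Atp1b1 (1489, 1465, 1753 and 1776 CPM) was a little lower in both Trim28Δ/Δ mice, without passing the test. Fxyd2, the gamma subunit of the pump, was among the genes with the smallest p and is described below. None of the 21 tested genes of this list passed the test.

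**Figure D2:**
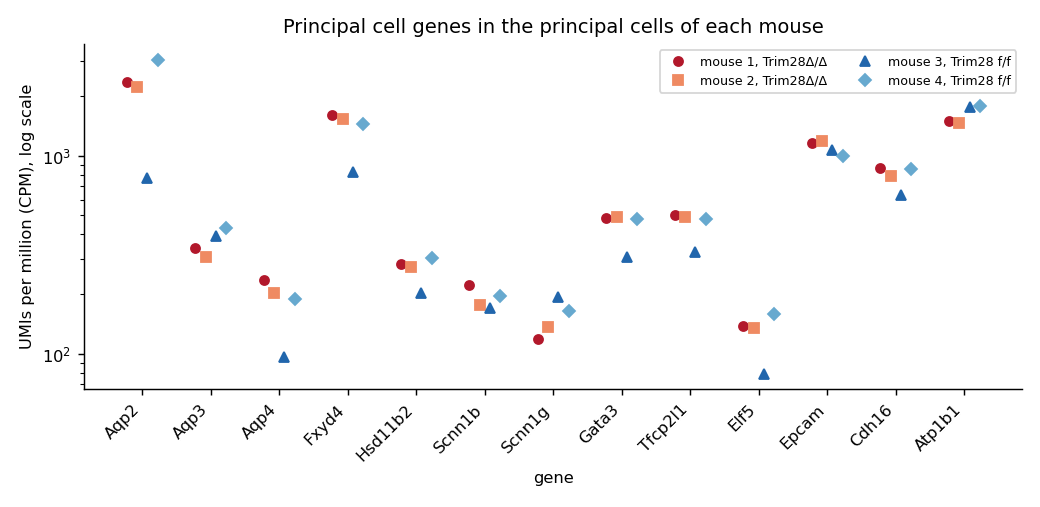
Levels of 13 genes of the collecting duct in principal cells, in CPM on a log scale (vertical axis), with 1 symbol for each mouse and gene (horizontal axis). Aqp2 of mouse 3 (772) lies apart from the other mice (2220 to 3045), and Fxyd4 and Aqp4 of mouse 3 are lowest as well, whereas Atp1b1 differs little between mice.

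The cells chosen by the rule, all called principal cells here, held 2 kinds that differed in S100g. This is the gene of calbindin-D9k, a calcium-binding protein typical of the connecting tubule. Of the 549 cells, 349 held under 5 S100g UMIs and 66 held at least 150, up to 3940 in a cell, with 15 cells between 30 and 75. A limit of 50 UMIs, set after the values were seen, left 462 S100g-low cells (94, 112, 171 and 85 in mice 1 to 4) and 87 S100g-high cells (12, 18, 35 and 22). No test was made between the kinds, because S100g chose them. In the S100g-high cells the summed level of 6 markers of the distal convoluted and connecting tubule was between 782 and 1723 CPM per mouse, against 115 to 227 in the S100g-low cells and 183 in the free RNA. Pvalb, a marker of the early distal convoluted tubule, was at 0 in all mice. By the summed markers the name principal cells is less sure for the S100g-high cells, which may be of the connecting tubule. Fits and shares of principal cells include them unless stated.

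The following genes, picked for their values, were higher in S100g-high cells. Slc12a3, the thiazide-sensitive sodium chloride cotransporter, stood at 331 CPM in S100g-high against 20.6 in S100g-low cells, Klk1 (kallikrein) at 369 against 13.1, and Spp1 (osteopontin) at 2273 against 91.3. Kl, the coreceptor Klotho for Fgf23, stood at 236 against 15.3. Several genes of the duct were lower in S100g-high cells. Fxyd4 was at 139 against 1483, Aqp2 at 519 against 2067, Aqp4 at 23.4 against 193, and Wnt9b, a ligand that the ureteric duct sends to the nephron progenitors, at 0.836 against 86.4 CPM. Tbx3 and Klf5, both transcription factors, stood at 7.11 and 8.36 CPM in S100g-high cells against 242 and 207 in S100g-low cells. Other principal cell genes were as high or higher in S100g-high cells. Scnn1b was at 334 against 151 CPM and higher in every mouse, and Scnn1g at 216 against 149, higher in all but mouse 2. Aqp3 was at 536 against 330 CPM and Hsd11b2 at 395 against 218, but both are genes of the rule. Cells with little Aqp2 could meet the rule only through Aqp3 and Hsd11b2. The higher levels of both thus follow in part from the choice of cells. Gata3 was not among the genes that were as high or higher. It stood at 208 to 311 CPM per mouse in S100g-high cells. All principal cells, which include the S100g-high ones, held 412 with the mice pooled.

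**Figure D3:**
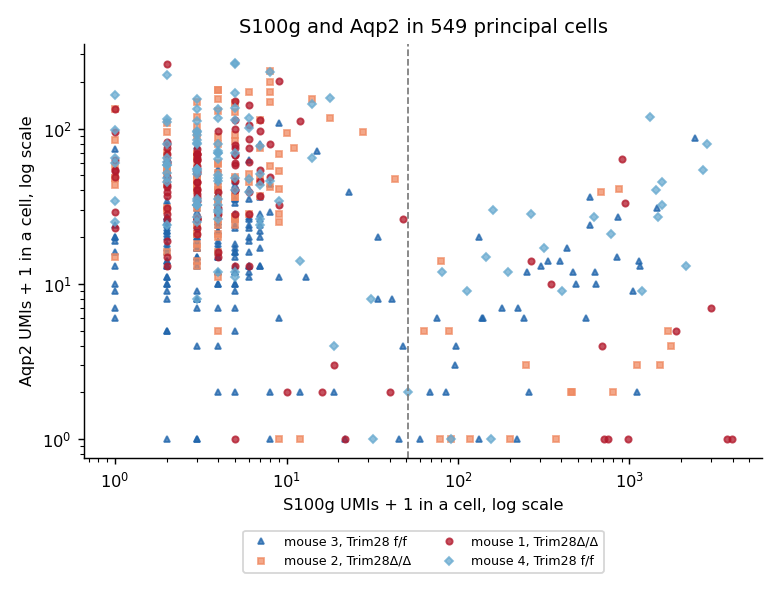
UMIs of S100g (horizontal axis) and Aqp2 (vertical axis) in each of the 549 principal cells, with 1 added to both and log scales. Colours and symbols mark the mice and the dashed line the limit of 50 S100g UMIs, to the right of which lie 87 cells with less Aqp2.

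Trim28 itself showed no call in the principal cells as a whole. It stood at 71.6, 94.9, 80.5 and 97.6 CPM in mice 1 to 4, from 158, 303, 431 and 210 UMIs, so that the genotypes overlapped. The log2 change was -0.12 (SE 0.21, edgeR quasi-likelihood adjusted p = 0.958). The reads lie at the 3′ end of the gene, outside the deleted segment, so a count shows how much transcript with this end was left and not the deletion itself. The kinds differed in this gene. In S100g-low cells Trim28 was at 76.3 and 109 in Trim28Δ/Δ against 81.2 and 100 in Trim28 f/f mice. In S100g-high cells it was at 37.3 and 41.8 (10 and 28 UMIs) against 77.5 and 88.2 (74 and 44 UMIs), with no overlap. The 87 S100g-high cells are few, and this difference between the kinds was not tested.

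Loop of Henle cells, which come from the Six2-expressing progenitors, gave the comparison with a recombined lineage. There were 420 of them, chosen by at least 10 UMIs of Slc12a1 and Umod, and Trim28 stood at 21.1, 24.3, 78.3 and 93.9 CPM in mice 1 to 4. The genotype change in principal cells exceeded that in loop of Henle cells by 1.82 on the log2 scale (SE 0.19, interaction term with the mouse as a block, edgeR adjusted p = 0.00560). Trim28 was 1 of 21 genes called among 11755 tested in this interaction (0.179%). Without the S100g-high cells, a setting chosen after the data were seen, the difference was 1.95 (SE 0.22, edgeR adjusted p = 0.00105). Without mouse 2 it was 1.70 and the adjusted p was 0.0748, and without the mouse block it was 1.82 with an adjusted p of 0.290, so the call did not hold in these settings. Intercalated cells, the other cell type of the collecting duct, had Trim28 at 82.3, 96.6, 82.5 and 81.5, and ureteric tip cells at 83.9, 131, 131 and 171 CPM.

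Of the other 20 genes called in the interaction, 5 were stroma markers of a list of 6 and 2 were red cell markers of a list of 5. Col1a1, a collagen chain, was at 30.4, 36.6, 11.96 and 12.09 CPM in principal cells and at 9.83, 6.93, 32.9 and 65.1 in loop of Henle cells, against 88.3 in free RNA, so the genotypes differed in opposite directions. Hbb-bt, a beta globin, was at 649, 772, 251 and 161 in principal cells and at 85.2, 83.6, 176 and 75.9 in loop of Henle cells. Free RNA held 4291 CPM of Hbb-bt, and the part of stray RNA in these calls was not tested. S100g had the smallest p (difference -2.72, SE 0.24, adjusted p = 0.00279), with 2913, 934, 217 and 320 CPM in loop of Henle cells against 8361, 3482, 3466 and 9233 in principal cells. Few cells carried the sums in loop of Henle cells, where the median was 5, 5, 3 and 3 UMIs and the highest cell of mouse 1 held 1312. When the S100g-high cells were left out, 34 genes were called instead of 21.

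Among the remaining calls, Resf1, a partner of Setdb1 in the silencing of retroelements, stood at 128, 109, 87.4 and 88.3 CPM in principal cells and at 223, 232, 64.8 and 62.4 in loop of Henle cells (difference -1.41, SE 0.17, adjusted p = 0.0162). Hspb1, a small heat shock protein, stood at 119, 114, 91.4 and 81.3 in principal cells and at 136, 88.8, 25.2 and 24.3 in loop of Henle cells (difference -1.74, SE 0.22, adjusted p = 0.0241). Both genes were higher in both Trim28Δ/Δ mice in both classes, by more in loop of Henle cells. Krt7, a keratin of the duct, stood at 326, 295, 332 and 404 in principal cells and at 259, 161, 58.1 and 104 in loop of Henle cells (difference -1.65, SE 0.22, adjusted p = 0.0242).

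**Figure D4:**
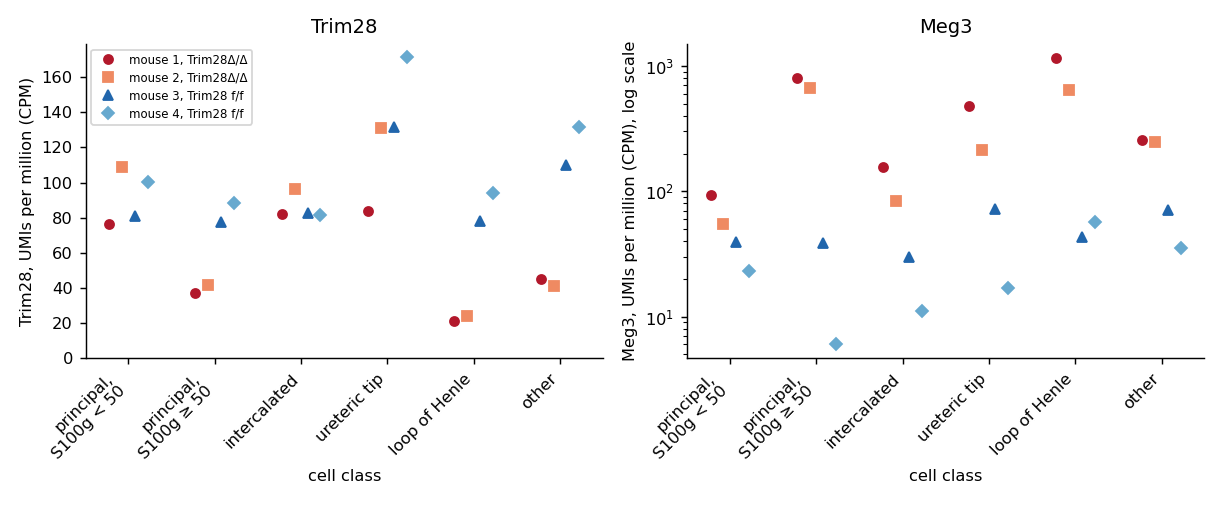
Trim28 (left, linear axis) and Meg3 (right, log axis) in CPM in 6 classes of cells, with 1 symbol for each mouse. In loop of Henle cells and S100g-high principal cells Trim28 of both Trim28Δ/Δ mice lies at or under 41.8 and that of both Trim28 f/f mice at or over 77.5, whereas the genotypes overlap in S100g-low principal cells and intercalated cells.

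Mouse 3 stood apart from the other 3 mice in the principal cells. Of 8841 genes with a mean of at least 10 CPM, 244 (2.76%) were at least 2-fold higher in mouse 3 than in every other mouse and 74 (0.837%) at least 2-fold lower. The same count was 3 to 6 genes higher for mice 1, 2 and 4. In loop of Henle cells it was 130 genes (1.49%) for mouse 3, and in intercalated cells 189 (2.13%). Mouse 1 had 132 such genes (1.49%) in intercalated cells and 103 in ureteric tip cells, classes of 141 and 132 cells, so mouse 3 did not stand alone there. These are counts without a test, since mouse 3 is a single animal. The median mitochondrial share of mouse 3 was also the lowest in principal cells (4.25% against 5.44% to 5.80%) and in loop of Henle cells (4.03% against 4.77% to 5.64%), though not in S100g-high cells (5.11% against 5.01% to 6.53%), and the part of cell quality was not tested.

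Genes of the hypoxia response and of glycolysis were 25 of the 244 higher genes and 0 of the 74 lower ones. Egln3, a prolyl hydroxylase that marks the HIF transcription factors for decay and is itself a target of them, stood at 14.5, 14.4, 228 and 12.6 CPM in mice 1 to 4. Bnip3, a mitophagy receptor, stood at 87.0, 101, 860 and 101, and Vegfa, the vascular growth factor, at 93.4, 98.9, 656 and 92.0 CPM. Only mouse 3 was high in these genes, and the other Trim28 f/f mouse lay with both Trim28Δ/Δ mice. Adm (adrenomedullin) stood at 0.45, 0.63, 101 and 1.86 CPM, from 1, 2, 539 and 4 UMIs. Hk2 (hexokinase) was at 10.4, 15.7, 393 and 15.8, and the glucose transporter gene Slc2a1 at 52.6, 66.7, 594 and 71.1. Of 29 genes on the list, 28 reached a mean of 10 CPM, and 25 of these were at least 2-fold above every other mouse in mouse 3, against 2.76% of all such genes. All 28 were above every other mouse by any margin, as were 35.1% of 8838 genes, while 36.1% of these were below every other mouse. Car9, the remaining gene, was near 0 in every mouse. This list and those below were written with earlier results of these data known, so their shares are a description only.

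The higher level in mouse 3 was found in every class of cells compared. The list's summed level in mouse 3 was 19195 CPM in principal cells and 6238 to 7474 in the other mice, a ratio of 2.79 to their mean. In S100g-low cells the ratio was 2.99, in S100g-high cells 2.05, in intercalated cells 2.30 and in ureteric tip cells 2.39. It was 1.96 in loop of Henle cells and 2.01 in the cells outside these classes. After thinning to 6800 UMIs, the S100g-low cells of mouse 3 held a median of 142 UMIs of the list (lowest 67), whereas the medians of mice 1, 2 and 4 were 41, 47 and 45 and their 9th deciles 57.7 to 62.9. The 1st decile of mouse 3 was 92, above the highest cell of any other mouse (85), so most cells of mouse 3 were high and not only a subset. Free RNA held 6983 CPM of the list, and its part in these values was not tested.

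Some genes of stress and of transcription were also high in mouse 3. At least 2-fold above every other mouse were 5 of 16 stress response genes at 10 CPM or more (1 was below), 4 of 16 immediate early genes and 5 of 25 transcription factors of the duct (1 was below), against 2.76% of all genes above and 0.837% below. The genes named next were picked for their values. Ddit3 (CHOP), a factor of the integrated stress response, stood at 18.1, 18.2, 256 and 12.6 CPM, Cdkn1a, the cell cycle inhibitor p21, at 69.3, 81.4, 611 and 63.7, and Elf3, an epithelial ETS factor, at 78.0, 94.5, 663 and 66.0. Klf5 stood at 71.6, 65.1, 319 and 54.4 and the circadian repressor Bhlhe40 at 39.4, 33.8, 306 and 26.0. Atf4 was at 72.1, 63.6, 157 and 66.5 CPM, but the chaperone Hspa5 of the endoplasmic reticulum was at 352, 483, 382 and 619, so the chaperone did not share the pattern. Of 15 trunk and medullary duct genes 1 was at least 2-fold below every other mouse, as were 2 of 11 hypertonicity genes, against 0.837% of all genes. Of 15 genes of water transport 3 were, Aqp2 of the rule among them. Krt18, a keratin of simple epithelia, was higher in mouse 3, at 715, 774, 1437 and 698 CPM. Akr1b3, an aldose reductase that makes the osmolyte sorbitol, stood at 243, 179, 55.7 and 293 CPM, and Guca2a at 120, 94.2, 17.0 and 66.5.

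**Figure D5:**
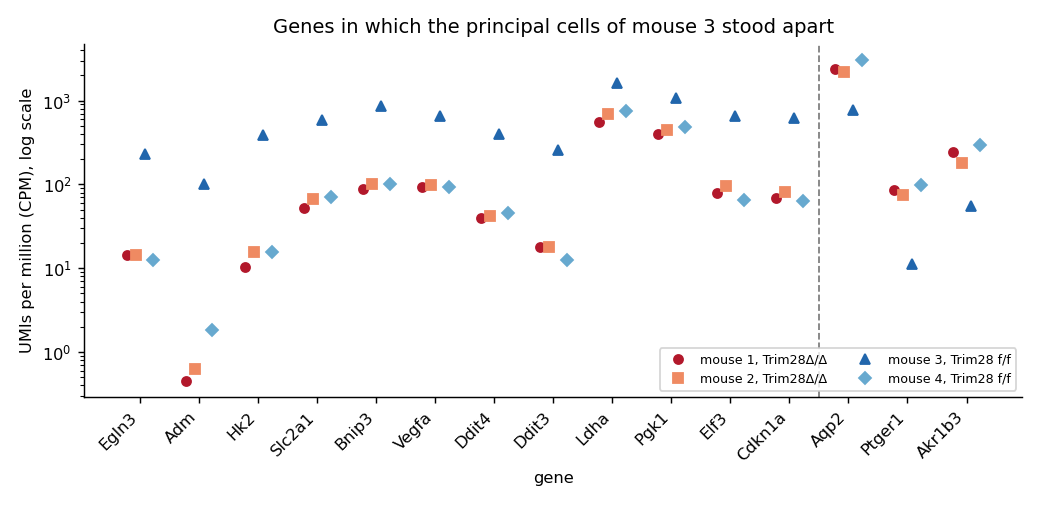
Levels of 15 genes in principal cells in CPM on a log scale (vertical axis), with 1 symbol for each mouse and gene (horizontal axis). To the left of the dashed line mouse 3 is above every other mouse, for instance 228 against 12.6 to 14.5 for Egln3, and to the right it is below them, for instance 772 against 2220 to 3045 for Aqp2.

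The promoters of the hypoxia and glycolysis genes and of Aqp2 were searched for a motif, as a description only. The core of a hypoxia response element is a CGTG preceded by A or G, and ACGTG and GCGTG were sought on both strands (CACGT and CACGC are these motifs on the other strand) in the 250 bases before each gene's start, in the RefSeq sequences of GRCm38.p6. Of the 29 list members 28 had a sequence, and 26 of them (92.9%) held a match in at least 1 of their windows, against 41.5% of all 27025 genes with a sequence. The list was made of hypoxia response and glycolysis genes, so its high share may follow from that choice and bears on no mouse. The genes with a sequence include ones not tested here. The share was not matched for base composition, and a match is no proof of a binding site. Matches overlap where both strands read CACGTG. The windows of Aqp2, which was low in mouse 3, and of Bnip3 and Adm, which were high, are given with the matches in capitals.
Aqp2, chr15:99578806-99579055, plus strand: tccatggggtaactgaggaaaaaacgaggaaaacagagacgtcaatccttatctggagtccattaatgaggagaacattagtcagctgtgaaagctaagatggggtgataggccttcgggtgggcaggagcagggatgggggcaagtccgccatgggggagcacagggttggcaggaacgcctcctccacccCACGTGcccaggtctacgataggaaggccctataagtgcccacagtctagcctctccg
Bnip3, chr7:138909507-138909756, minus strand: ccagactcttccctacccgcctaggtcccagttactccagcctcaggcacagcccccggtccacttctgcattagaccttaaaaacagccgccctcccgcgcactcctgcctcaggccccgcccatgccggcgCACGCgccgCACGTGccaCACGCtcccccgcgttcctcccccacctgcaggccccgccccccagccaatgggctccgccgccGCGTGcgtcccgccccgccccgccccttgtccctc
Adm, chr7:110627407-110627656, plus strand: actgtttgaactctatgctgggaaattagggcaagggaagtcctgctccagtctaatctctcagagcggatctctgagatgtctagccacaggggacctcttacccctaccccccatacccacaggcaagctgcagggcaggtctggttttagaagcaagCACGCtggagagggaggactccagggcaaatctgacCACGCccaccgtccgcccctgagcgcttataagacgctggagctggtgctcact
Bnip3 held 5 matches, Adm 2 and Aqp2 2 on overlapping strands. Whether any of these matches acts in these cells was not tested.

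By genotype, no gene of the principal cells passed the test. Among 11427 genes in the edgeR quasi-likelihood fit of 2 against 2 mice, 0 were called at an adjusted p of 0.05 (0% higher and 0% lower), and the smallest adjusted p was 0.330. At an unadjusted p under 0.05, 210 genes (1.84%) were higher and 315 (2.76%) lower in Trim28Δ/Δ. DESeq2 on the same genes called 8, all higher, Meg3 and Crisp1 among them. Counts were simulated at this depth with a spread common to all genes (dispersion 0.0404). The fit then recovered 89% of 4-fold and 23% of 2-fold changes, so smaller changes would mostly go unseen. No simulated mouse stood apart as mouse 3 did, so these shares may overstate what the fit finds in the real counts. Without mouse 3 the fit called 85 genes (37 higher, 48 lower) with mouse 4 as the only Trim28 f/f animal, and without mouse 4 it called 2915.

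The genes with the smallest p were mostly globins. Of all tested genes, 19.4% were higher and 14.02% lower in Trim28Δ/Δ with no overlap of the mice. The 5 with the smallest p among the higher ones were Hba-a2, Hbb-bs, Hba-a1, Meg3 and Hbb-bt, which are globins but for Meg3. Hba-a2 stood at 551, 734, 182 and 180 CPM (log2 change 1.80, SE 0.17, edgeR adjusted p = 0.330). The 5 red cell markers summed to 4293, 5421, 1656 and 1760 CPM in principal cells, and to 7185, 7325, 10283 and 7391 in the cells outside the classes compared. Free RNA held 32209, and the part of red cell RNA in this difference was not tested. Without the S100g-high cells, the sums were 4780, 6704, 1867 and 857.

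Meg3, a maternally expressed noncoding RNA of the imprinted Dlk1-Dio3 region, stood at 179, 184, 39.2 and 19.1 CPM (log2 change 2.57, SE 0.33, edgeR adjusted p = 0.501). The S100g-high cells held the widest gap, at 807, 672, 38.7 and 6.02 CPM. In S100g-low cells Meg3 was at 92.9, 54.7, 39.3 and 23.0 (log2 change 1.17, SE 0.36, edgeR adjusted p = 0.950). In loop of Henle cells it was at 1153, 639, 43.0 and 57.1, and in free RNA at 129 CPM. The genotype change of Meg3 in principal cells minus that in loop of Henle cells was -1.57 on the log2 scale (SE 0.39, edgeR adjusted p = 0.237). Without the S100g-high cells, a setting chosen after the data were seen, it was -3.02 (SE 0.28, edgeR adjusted p = 0.000288). That setting leaves out the cells with the widest gap in Meg3, so its p is a description only. Rian, its neighbour in the same imprinted region, followed it, with 112, 110, 11.5 and 8.02 in S100g-high cells and 20.1, 13.5, 9.78 and 9.08 in S100g-low cells.

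The 5 with the smallest p among the lower ones were Fxyd2, Cenpf, Ube2c, Trim59 and Fos. Fxyd2 stood at 449, 399, 750 and 817 CPM (log2 change -0.91, SE 0.13, edgeR adjusted p = 0.670). In S100g-low cells it stood at 366, 324, 619 and 370, so that mouse 4 lay beside mouse 1, and loop of Henle cells held 4450 to 5488 of it. Cenpf (47.6, 57.3, 103 and 106 CPM) and Ube2c (60.3, 73.3, 138 and 121) are genes of mitosis. Fos, an immediate early gene, was at 75.7, 63.2, 130 and 123. None of these genes passed the test.

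No gene list held a call by genotype. Across 16 lists with 344 genes, 285 were tested and 0 passed. At an unadjusted p under 0.05, 19 of 27 tested hypoxia and glycolysis genes were lower in Trim28Δ/Δ (median log2 change -1.62), against 2.76% of all genes, and 0 were higher. Without mouse 3 the median was -0.19, 9 of 27 were lower at an unadjusted p under 0.05, against 3.92% of all genes lower and 3.96% higher in that fit, and 1 of them, Gapdh, was called. Of 24 cell cycle genes, 12 were lower at an unadjusted p under 0.05 (median -0.61), against 2.76% of all genes, and 13 without mouse 3 (median -0.53), against 3.92%, of which Cenpf and Ube2c were called. Without the S100g-high cells 2 were lower (median -0.34), against 2.23% of all genes. The median log2 changes of the cell cycle and hypoxia lists were -0.40 and -1.55 without mouse 1, and -0.72 and -1.64 without mouse 2. Leaving out a Trim28Δ/Δ mouse lowered the counts of both lists, as it did the count of all genes. Without mouse 1, 2 cell cycle and 1 hypoxia genes were lower, and without mouse 2, 6 and 4, when 71 of 12310 and 84 of 11564 of all genes were. Top2a stood at 74.8, 88.9, 131 and 99.9 and Mki67 at 52.1, 57.3, 101 and 75.3 CPM.

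The median log2 change of all tested genes was -0.01, and several lists lay near it. Of 27 tested transcription factors of the duct 1 was higher at an unadjusted p under 0.05 (median 0.13), against 1.84% of all genes higher and 2.76% lower. Tfcp2l1, which shapes principal and intercalated cell fate, stood at 502, 489, 328 and 479 CPM, Gata3 at 486, 489, 309 and 477, and Hoxb7, a homeobox gene of the ureteric bud, at 188, 192, 97.5 and 162, each with mouse 3 lowest. Of 20 junction and polarity genes 0 passed even without adjustment (median -0.10), and Epcam stood at 1163, 1183, 1072 and 998. Of 19 genes of Trim28 and its heterochromatin partners 0 passed without adjustment (median 0.01). Chd4, a remodeller of the NuRD complex, was at 394, 391, 355 and 370 and Setdb1 at 38.1, 38.2, 38.7 and 35.3 CPM. Of 16 cilium and polycystin genes 0 passed without adjustment either (median -0.04).

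Some lists held a few members with low p. Of 21 tested genes of sodium and potassium handling, 7 were lower at an unadjusted p under 0.05 (median -0.14), against 2.76% of all genes, and 2 without the S100g-high cells, against 2.23% lower and 1.56% higher. The count fell without mouse 1 or mouse 2, as did that of all genes, and did not fall without mouse 3 or mouse 4. Of 24 tested genes of matrix and growth signals 3 were higher (median -0.07), against 1.84% of all genes, and Wnt4, a ligand of the duct and the nephron, stood at 206, 202, 133 and 134 CPM. Of 19 immediate early genes 4 were lower (median -0.46), against 2.76% of all genes, with Ier3 at 60.3, 71.7, 468 and 118. The counts of matrix and growth signal genes and of immediate early genes fell without mouse 1 or mouse 2 and rose without mouse 3 or mouse 4. The counts over all genes moved in the same way. Of 12 genes of the hypertonicity response 1 was lower (median -0.12), of 17 stress response genes 1 was lower (median -0.22), and of 13 genes of inflammation and interferon 1 was higher and 2 lower (median 0.08). Intercalated (10 tested, median 0.04), ureteric tip (9 tested, median 0.12) and trunk and medullary genes (17 tested, median -0.22) had at most 1 gene in either direction.

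With mouse 3 left out, 23 list members were called, 5 higher and 18 lower, against 0.323% and 0.419% of all genes. The lower ones included Aqp2 (log2 change -0.45, SE 0.05, edgeR adjusted p = 1.81e-06), Aqp3 (-0.45, SE 0.10, adjusted p = 0.0207), Scnn1a (-0.85, SE 0.20, adjusted p = 0.0380), Calb1 (-1.26, SE 0.11, adjusted p = 2.19e-08) and the urea transporter gene Slc14a2 (-1.72, SE 0.23, adjusted p = 5.42e-05). The higher ones were Krt19, Upk3a, Tfap2b, Sfrp1 and Wnt4. Mouse 3 went against the call for Krt19 (209, 173, 359 and 123 CPM) and for Slc14a2 (14.1, 14.4, 6.17 and 46.0 CPM). It also went against the calls for Aqp2, for Calb1 and for Wfdc2 of the trunk genes (2110, 2186, 1812 and 2556 CPM). Of the other lower ones, Hspa5 and Hsp90b1 of mouse 3 lay between mouse 1 and mouse 2. Aqp2 and Aqp3 are genes by which the cells were chosen, so their values are a description and support nothing. These changes compare 2 mice with mouse 4 alone, which is assumed to vary as the Trim28Δ/Δ pair does. Wnt4 and Scnn1a of mouse 3 (133 and 53.1 CPM) lay beside mouse 4 (134 and 54.9), whereas Aqp2 and Calb1 of mouse 3 (772 and 167) lay below all other mice. Calb1, the calbindin-D28k gene of the connecting tubule, stood at 174, 224, 167 and 468 CPM, and its change in the fit of all mice turned from -0.70 to 0.33 when the S100g-high cells were left out.

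The principal cells also varied among themselves within each mouse. In S100g-low cells thinned to 6800 UMIs, the summed UMIs of the cell cycle list had a median of 2 in each mouse, with 9th deciles of 6 to 10.9 and single cells up to 105, so a few cells in each mouse were cycling by these genes. The summed UMIs of S100a6, Akr1b3, Slc14a2, Upk3a and Crisp1 had a median of 2 in mice 1, 2 and 4 and of 0 in mouse 3, with 9th deciles of 10.7, 7, 2 and 15.2 and single cells up to 123. Crisp1, the first gene by the pooled ratio, was uneven between mice, at 188, 103, 21.2 and 36.3 CPM in S100g-low cells, higher in both Trim28Δ/Δ mice (log2 change 2.35, SE 0.40, edgeR adjusted p = 0.950), and at 0 UMIs in the S100g-high cells of 3 mice. Upk3a, a uroplakin gene, was at 54.4, 12.5, 5.23 and 3.25 CPM in all principal cells. Of 120 UMIs in mouse 1, 94 came from 1 cell, so that cell carried most of its value.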

How the data were processed

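Single-cell RNA and cell multiplexing tags of pooled embryonic kidneys were measured with 10x 3′ v3.1 chemistry after dissociation with a cold-active protease. The authors deposited raw UMI counts per barcode for genes and tags from Cell Ranger (6.0.0 in the submitters' processing notes, with GRCm38/mm10), unfiltered and not normalized. Of 3921239 barcodes, 19273 passed the minimums of 6890 gene UMIs and 200 genes and the limit of 10% on mitochondrial UMIs. A mouse was assigned where the top tag of CMO301 to CMO308 had at least 50 counts and 80% of these counts (10098 cells, of which 6495 carried a listed tag). Scrublet (expected rate 0.15) was run and its doublets were kept. Free RNA was taken from 353040 barcodes of 10 to 100 UMIs (5505159 UMIs).

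Counts were summed per mouse and class, and edgeR 4.0.16 in R 4.3.3 was fitted with filterByExpr, TMM and the quasi-likelihood test. P-values were adjusted by Benjamini-Hochberg over all genes tested, at 0.05. SE is the log2 change divided by the square root of F. The interaction compared the genotype change of principal and loop of Henle cells with the mouse as a block. DESeq2 1.42.0 was an alternative, as were other UMI, tag and marker minimums and leaving out each mouse. Shares were compared with the two-sided exact permutation test over mice. Intervals and depth cover counting error only. On counts simulated with a spread common to all genes, the principal cell fit recovered 23% of 2-fold and 89% of 4-fold changes. The interaction recovered 5% and 58%. The rule for named genes took the genes of the cell rule with Fxyd4, Trim28 and Six2, the 5 genes with the smallest p and no overlap in each direction, called or most abundant members of each list, and the 10 leading genes. All others (interaction calls, mouse 3, the S100g kinds and less abundant list members) were named after their values were seen. The members and lists were chosen with earlier results of these data known. One called gene of the interaction and 1 list member are not reported here.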

Additional observations from a re-analysis of the deposited data

Results flagged for a closer look

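In 21 genes the log2 change between Trim28Δ/Δ and Trim28 f/f mice differed between principal cells and loop of Henle cells, by an interaction term in edgeR with an adjusted p under 0.05. Of these, 20 are given here. The differences below are the change in principal cells minus that in loop of Henle cells. Trim28 differed by 1.82, since its level by genotype overlapped in principal cells and did not in loop of Henle cells. Among genes of stroma and vessels, Dcn differed by 5.33, Postn by 5.54, Col1a1 by 3.86, Col3a1 by 3.64, Col1a2 by 3.34, Meis2 by 2.15 and Myct1 by 5.84. The globin genes Hbb-bt and Hba-a2 differed by 2.31 and 2.49. The part of RNA from other cells in these values was not tested.

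The other genes named had negative differences. S100g differed by -2.72 and Fxyd2 by -1.10, both genes whose level depended on the S100g-high cells. Sprr1a differed by -4.51, Pck1 by -2.27, Lgals3 by -1.78, Hspb1 by -1.74, Rrm2 by -1.70, Krt7 by -1.65, Resf1 by -1.41 and Pth1r by -1.09. Several of these rested on few UMIs in loop of Henle cells. Postn had 0 and 2 UMIs in the Trim28Δ/Δ mice, Myct1 1 and 2 and Dcn 3 and 6, and Sprr1a had 2 and 3 in the Trim28 f/f mice.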

How the results depend on the processing

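No gene was called by genotype in the principal cells as reported. A tag purity of 90% called 4 (4 higher), leaving out Scrublet doublets 1 (1 higher), no filter beyond 1 count 385 (75 higher, 310 lower) and DESeq2 8 (8 higher). Leaving out 1 mouse each gave 0 to 2915 calls (0 to 1300 higher, 0 to 1615 lower), with 85 without mouse 3 and 2915 without mouse 4, and 0 to 168 calls among list members. A lone Trim28 f/f mouse was there assumed to vary like the other pair, and the cause was not tested. The change of Trim28 in principal cells turned positive with a marker minimum of 20 UMIs (0.025), in thinned cells (0.073), without S100g-high cells (0.013, chosen after seeing the data), without mouse 1 (0.055) and without mouse 4 (0.045), none past the threshold (range without 1 mouse -0.33 to 0.055).

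The interaction called 8 to 235 genes without 1 mouse each, 327 with no filter, 0 without the mouse block and 34 without the S100g-high cells. For Trim28 it was 1.70 to 1.91 without 1 mouse each (adjusted p = 0.0748 without mouse 2) and 1.82 without the mouse block (edgeR adjusted p = 0.290). The share of principal cells kept its direction in all 12 alternatives, by 1.31 to 3.16 percentage points. No paired analysis was possible because the mice of the single-cell pool share no replicate numbers and the bulk samples were not analysed here. With 2 mice per genotype, changes under 4-fold would often be missed, and the interaction recovered only 58% of simulated 4-fold changes. No simulation was made for the 87 S100g-high cells.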

Other observations

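Among 3603 cells with a tag that the deposited list gives no mouse, 268 met the rule for principal cells (7.44%), within the range of 6.91% to 10.1% of the listed mice. These cells have no genotype and were not compared.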
